A study of Mus musculus with 22 samples.

Results

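The genes followed here were Nfe2l2, which encodes the transcription factor NRF2, Keap1, which encodes its repressor, and 8 genes that NRF2 is known to switch on: Hmox1, Nqo1, Gclc, Gclm, Txnrd1, Srxn1, Slc7a11 and Gsr. They were chosen by symbol, and the symbols matched 10 of the 32858 genes in the count table. All 10 were among the 17131 genes with enough reads to be tested. The kidneys came from 22 male C57Bl6/J mice, 8 to 10 weeks old, and each mouse gave 1 poly(A) RNA-Seq library. The 5 vehicle-treated mice received the carrier of KW6002 (15% DMSO, 15% cremophor, 70% saline), and 6 mice received KW6002 (istradefylline, an antagonist of an adenosine receptor) at 3 mg/kg each day from day -5 to day 7. A further 5 mice received cisplatin, a platinum drug that damages the proximal tubule, in 6 daily intraperitoneal injections of 3 mg/kg from day 0. The remaining 6 mice, called co-treated below, received both drugs on these schedules. Kidneys were taken 72 hours after the last cisplatin injection. Whether mice without cisplatin were injected with its saline and whether mice on cisplatin alone received the carrier are not given in the sources used here, and each treatment was studied at 1 dose, at 1 time and in 1 sex.

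NRF2 is held in the cytoplasm by KEAP1, an adaptor of a CUL3 ubiquitin ligase that marks it for degradation. When reactive cysteines of KEAP1 are modified by oxidants or electrophiles, newly made NRF2 escapes, enters the nucleus, pairs with a small MAF protein and binds antioxidant response elements. Much of this control acts on the protein, which mRNA levels do not show, and NRF2 can also act on its own gene.

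Depth was similar across the mice, from 26471762 to 40510754 counts per library, and no pair of libraries within a group was close enough to be a duplicate. By their labels, 6 kidneys (3 vehicle, 3 KW6002) are numbered in the 300s, and the other 16, among them every kidney exposed to cisplatin, in the 500s. What the series stands for is not stated. In bulk kidney, fewer cells of a type and less RNA per cell cannot be told apart, and cell markers moved widely. Levels are given as CPM, the usual ratio of the counts of a gene to the total of its library, scaled by the TMM method, which allows for differences in library composition. The summed level of 6 proximal tubule markers (Slc34a1, Lrp2, Cubn, Slc5a2, Slc22a6, Slc27a2), all of them present, was 18142 to 19477 CPM with vehicle, 3019 to 4929 with cisplatin and 7495 to 11115 with co-treatment. For 4 markers of injured tubule (Havcr1, Lcn2, Krt20, Vcam1), the sums were 16.8 to 23.1, 1288 to 2423, and 352 to 752 CPM. The 4 fibroblast markers (Pdgfra, Pdgfrb, Col1a1, Dcn) summed to 142 to 246, 494 to 614, and 260 to 406 CPM. Thick ascending limb markers (Umod, Slc12a1) summed to 4523 to 7555, 1959 to 2274, and 2283 to 4123 CPM, and 4 fat markers to 29.1 to 363, 130.2 to 235, and 3.14 to 84.2 CPM. The 2 collecting duct markers summed to 128 to 305, 385 to 576, and 323 to 577 CPM, so the sums of both groups exposed to cisplatin were above vehicle. Taken singly, the 2 markers went apart with cisplatin, 1 higher and 1 lower. With co-treatment against vehicle 1 was higher and 0 lower. With cisplatin 2 of 2 podocyte markers and 2 of 2 tested T cell markers were lower, and with co-treatment against vehicle 1 of each. Of 4 endothelial markers 1 was higher and 1 lower with cisplatin, and 3 were lower with co-treatment against vehicle. Of 3 neutrophil markers 1 was higher with cisplatin and 1 lower with co-treatment against vehicle. Of 8 macrophage markers 1 was higher and 2 lower with cisplatin, and 4 were lower with co-treatment against vehicle. The part of these shifts in the values below was not tested.

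The antioxidant response element was looked for in the promoters, as the letters TGACNNNGC on either strand, within 250 bases before and 50 after the RefSeq transcription start (GRCm38.p6). It occurred in 4071 of 32851 promoter windows, or 12.4%. Windows, 9 in all, were at hand for 7 of the 10 genes, and at least 1 window each of Nfe2l2, Gclm, Txnrd1 and Srxn1 held it. The 12.4% is a share of single windows, which is another unit than a count of genes. Txnrd1 was the member with the longer spelling TGACNNNGCA, found in 3.04% of all windows. For Srxn1 the match lay after the start. The 3 matches before the start are shown because they are the stretches of these genes to which the letters of the element point. Each line is 30 bases, 5′ to 3′ in the direction of the gene, with the matching letters in capitals. In Gclm and Txnrd1 the element reads on the opposite strand.
Nfe2l2, chr2:75704884-75704913, minus strand, 240 to 232 bases before the start: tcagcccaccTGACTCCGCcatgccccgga
Gclm, chr3:122245413-122245442, plus strand, 134 to 126 bases before the start: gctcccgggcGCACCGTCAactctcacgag
Txnrd1, chr10:82859104-82859133, plus strand, 92 to 84 bases before an internal start: ctggatttttGCTTTGTCAttctgacacgg
A match describes these letters only, and binding of NRF2 was not measured. Hmox1, Gclc and Gsr had no window in the promoter table. The RNA of these genes is described next, beginning with the regulator and its repressor.

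Nfe2l2 (ENSMUSG00000015839, chr2:75675513-75704641) rose with cisplatin and stood between vehicle and cisplatin after co-treatment. Vehicle kidneys held 109.8, 112.6, 110.7, 109.8 and 134.4 CPM, and cisplatin kidneys held 315, 296, 309, 312 and 269. In co-treated kidneys the lowest value was 185, the median 200.4 and the highest 219 CPM, and with KW6002 alone they were 107, 113 and 118. The cisplatin, co-treated and vehicle groups formed separate bands, while KW6002 alone overlapped vehicle. The mean was 115 ± 10.7 CPM (SD, n = 5) with vehicle and 300.2 ± 19.1 (n = 5) with cisplatin, a log2 fold change of 1.38 ± 0.06 (SE) or 2.60-fold, with an adjusted p of 7.73e-15. Adjusted p-values come from the edgeR quasi-likelihood test with Benjamini-Hochberg adjustment over all 17131 genes, and a gene was called below 0.05. Against cisplatin alone, co-treated kidneys were lower by a log2 fold change of -0.58 ± 0.06 (adjusted p = 1.74e-08), and against vehicle they were higher by 0.80 ± 0.06 (adjusted p = 1.29e-10). The KW6002 effect itself differed with and without cisplatin, by -0.54 on the log2 scale (95% CI, -0.71 to -0.37, adjusted p = 1.57e-05).

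Keap1 (ENSMUSG00000003308, chr9:21229730-21239361) varied over a narrow range. Vehicle kidneys held 46.9, 47.4, 49.7, 49.6 and 49.5 CPM, and cisplatin kidneys held 42.3, 43.2, 43.9, 43.6 and 45.9. Co-treated kidneys ran from 51.4 through a median of 55.1 to 56.4 CPM, and KW6002 kidneys from 47.3 through 49.9 to 54.7. On the TMM scale no value of the cisplatin group reached vehicle, but with counts set against library totals alone these groups overlapped. No co-treated value fell to the cisplatin or vehicle range. With cisplatin the log2 fold change was -0.15 ± 0.04 (adjusted p = 0.00206), but scaling by library size without TMM gave 0.066 (adjusted p = 0.157), on a scale where the median of all genes moved to 0.20. Co-treated kidneys were higher than cisplatin kidneys by 0.32 ± 0.04 (adjusted p = 3.69e-07) and higher than vehicle by 0.17 ± 0.04 (adjusted p = 0.000759). Its KW6002 effect was larger with cisplatin by 0.28 on the log2 scale (adjusted p = 0.000297).

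**Figure D1:**
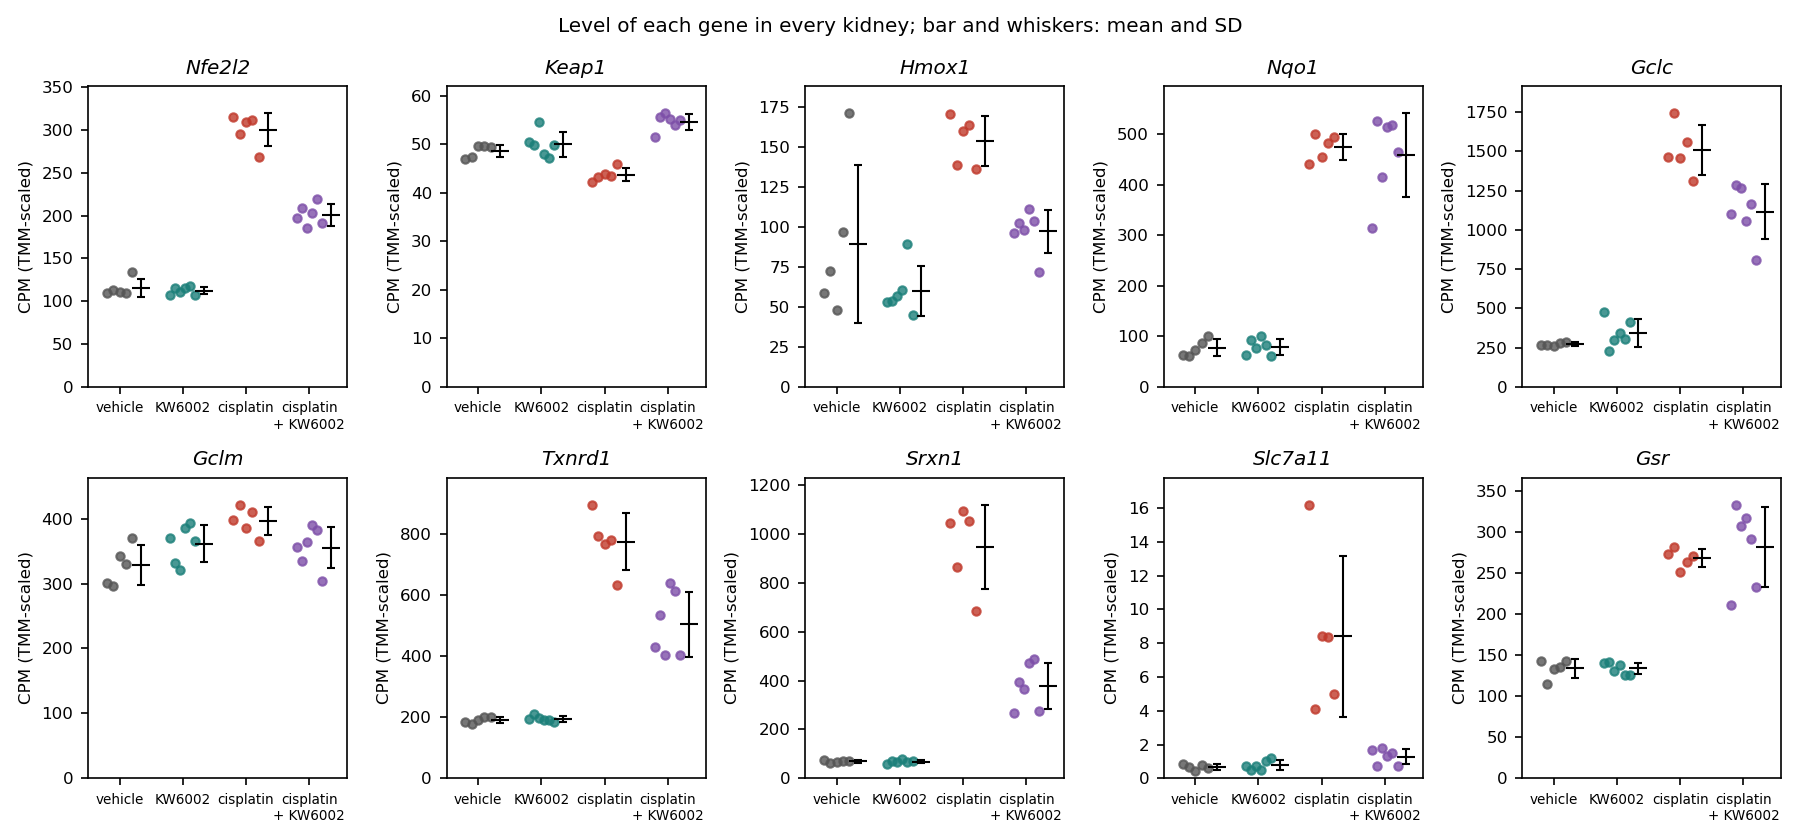
TMM-scaled CPM (vertical axes, linear and starting at 0, one scale per gene) of the 10 genes in each kidney of the vehicle (n = 5), KW6002 (n = 6), cisplatin (n = 5) and cisplatin plus KW6002 (n = 6) groups; points are mice, and bars with whiskers are the mean and SD. Srxn1 runs from 61.8 to 73.5 with vehicle, 684 to 1092 with cisplatin and 268 to 489 with co-treatment, whereas Nqo1 is at 440 to 500.5 with cisplatin and 314 to 525.4 with co-treatment.

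Hmox1 (ENSMUSG00000005413, chr8:75093621-75100589) encodes heme oxygenase 1, which breaks down heme. Vehicle kidneys differed widely, at 58.8, 72.4, 47.8, 96.6 and 170.9 CPM. Cisplatin kidneys held 170.3, 138, 159.9, 164 and 136 CPM. The highest vehicle kidney, replicate 5, was above every cisplatin kidney, and the other 4 were below all of them. Co-treated kidneys ran from 71.7 through a median of 100.02 to 111 CPM, below all cisplatin kidneys, and KW6002 kidneys from 44.8 through 55.2 to 89.5. The log2 fold change with cisplatin was 0.78 ± 0.24 (adjusted p = 0.00556), and co-treated kidneys stood at -0.66 ± 0.23 against cisplatin (adjusted p = 0.0159). They were not distinguished from vehicle (0.12 ± 0.23, 95% CI -0.35 to 0.59, adjusted p = 0.667). KW6002 alone gave -0.58 ± 0.23 (adjusted p = 0.335), and its effect changed by -0.08 when cisplatin was present, with a wide interval (95% CI, -0.75 to 0.58).

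The results for Hmox1 against vehicle depended on which vehicle mice it was set against. Vehicle kidneys numbered in the 300s held 47.8 to 72.4 CPM, and the pair numbered in the 500s held 96.6 and 170.9. With the number series as a covariate the log2 fold change was 0.47 (adjusted p = 0.0514), and within the 500s alone it was 0.20 (adjusted p = 0.455). Without vehicle replicate 5 it was 1.16 (adjusted p = 8.60e-06), and the co-treated kidneys were then above vehicle by 0.50 (adjusted p = 0.0191). The co-treated difference from vehicle turned to -0.19 with the series as a covariate (adjusted p = 0.449) and to -0.46 within the 500s (adjusted p = 0.0764). The difference with KW6002 alone was -0.20 without vehicle replicate 5 and -1.04 within the 500s, and the difference of the KW6002 effects was then -0.46 and 0.38, none of them past the threshold. By contrast, the difference between co-treated and cisplatin kidneys, all numbered in the 500s, was -0.66 within the 500s (adjusted p = 0.00173). Macrophages, which take up red cells, are rich in heme oxygenase. The sum of 8 macrophage markers was 190 CPM in vehicle replicate 5 against 186 to 449 over the vehicle group, 238 to 336.9 with cisplatin and 131 to 226 with co-treatment. Of the 8, 1 was higher and 2 lower with cisplatin, and 1 was higher and 1 lower with co-treatment against cisplatin. Red cell markers summed to 73.0 CPM in vehicle replicate 5 against 65.9 to 408 over the vehicle group, and all 5 were lower with cisplatin, at a summed 0.0266 to 0.201 CPM. Their part in the level of Hmox1 was not tested.

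**Figure D2:**
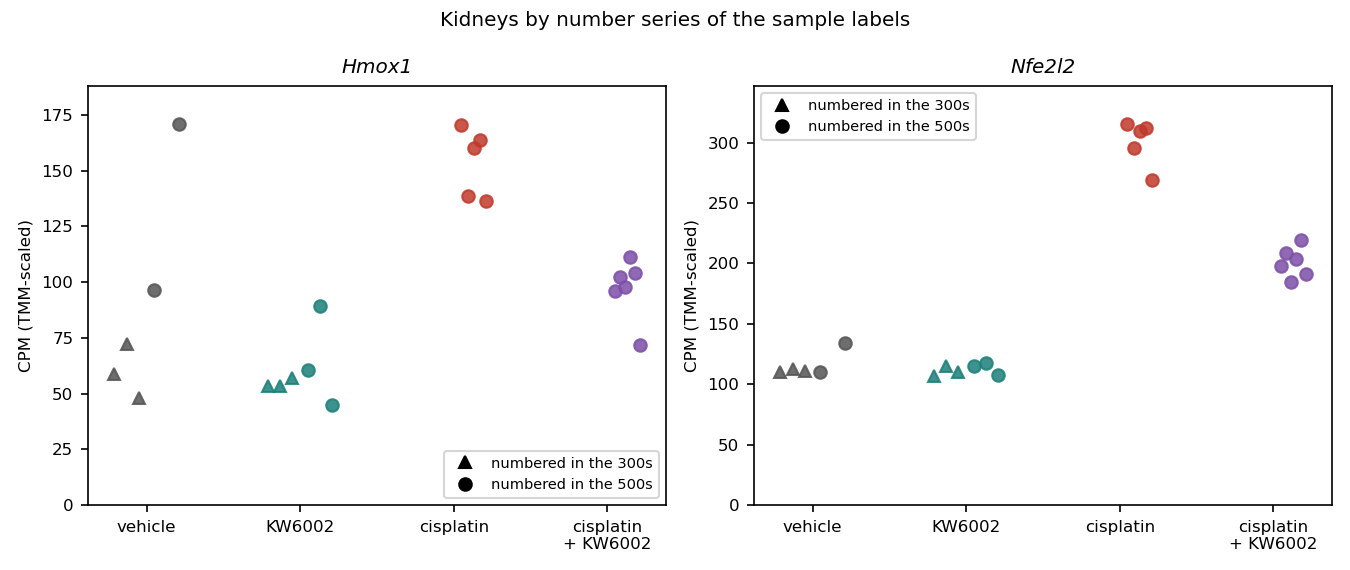
Hmox1 (left) and Nfe2l2 (right) in each kidney as TMM-scaled CPM (linear axes from 0), by group, with triangles for mice numbered in the 300s and circles for the 500s. The 2 vehicle circles of Hmox1, at 96.6 and 170.9, lie above the 3 vehicle triangles at 47.8 to 72.4, while Nfe2l2 in all vehicle kidneys, at 109.8 to 134, is below the cisplatin range of 269 to 315.

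Nqo1 (ENSMUSG00000003849, chr8:107388225-107403206) encodes NAD(P)H quinone dehydrogenase 1, which reduces quinones without forming radicals. It held 62.2, 61.4, 73.2, 87.4 and 100.9 CPM in vehicle kidneys and 439.9, 500.5, 456, 482 and 494 in cisplatin kidneys. In co-treated kidneys it ran from 314 through 490.1 to 525.4 CPM. Every kidney exposed to cisplatin was thus above every vehicle kidney, and the co-treated range spanned that of cisplatin. On the log2 scale the difference was 2.62 ± 0.16 with cisplatin (adjusted p = 1.55e-12) and 2.57 ± 0.16 with co-treatment against vehicle (adjusted p = 6.53e-12). Between co-treated and cisplatin kidneys it was -0.05 ± 0.14, with a 95% CI of -0.35 to 0.25 (adjusted p = 0.795).

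Among the genes of glutathione supply, Gclc and Slc7a11 rose with cisplatin and were lower with co-treatment, whereas Gsr rose and did not differ past the threshold between co-treated and cisplatin kidneys. Gclc (ENSMUSG00000032350, chr9:77754535-77794485) encodes the catalytic subunit of glutamate cysteine ligase, which makes the first bond of glutathione. Vehicle kidneys held 268, 267, 259, 279 and 287 CPM, and cisplatin kidneys 1466, 1743, 1456, 1559 and 1312. Co-treated kidneys ran from 807 through 1136 to 1289 CPM, below cisplatin and above vehicle without overlap. KW6002 kidneys spread from 225 through 326 to 477 CPM, a coefficient of variation of 25.9% against 4.10% with vehicle. The log2 fold change was 2.47 ± 0.15 with cisplatin (adjusted p = 1.86e-12) and -0.43 ± 0.14 with co-treatment against cisplatin (adjusted p = 0.0103). It was 2.04 ± 0.15 with co-treatment against vehicle (adjusted p = 9.43e-11), and the KW6002 effects differed by -0.77 ± 0.20 (adjusted p = 0.00294).

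Gclm (ENSMUSG00000028124, chr3:122245557-122270732), the modifier subunit that makes the same enzyme more efficient, moved far less than its partner. It ran from 297 to 371 CPM with vehicle, 366 to 421 with cisplatin, 304 to 391 with co-treatment and 321 to 393 with KW6002. All of these ranges overlapped their neighbours. The log2 fold change with cisplatin was 0.27 ± 0.07 (adjusted p = 0.00244), and within the 500s it was 0.17 (adjusted p = 0.106). Co-treated kidneys differed from cisplatin kidneys by -0.16 ± 0.07 (adjusted p = 0.0639) and from vehicle by 0.11 ± 0.07 (adjusted p = 0.170). Scaling by library size alone put both past the threshold, at -0.21 and 0.27, on a scale where the medians of all genes moved to -0.05 and 0.16. With the number series as a covariate they were -0.16 (adjusted p = 0.0369) and 0.02 (adjusted p = 0.831). A filter of 10 counts in every library gave -0.17 against cisplatin (adjusted p = 0.0410) and 0.10 against vehicle (adjusted p = 0.202).

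Slc7a11 (ENSMUSG00000027737, chr3:49892526-50443614) encodes xCT, the exchanger that imports cystine for glutathione synthesis. It was scarce, at 0.842, 0.682, 0.437, 0.775 and 0.618 CPM in vehicle kidneys, or 13 to 26 counts. Cisplatin kidneys held 16.2, 4.09, 8.42, 8.35 and 4.98 CPM, or 163 to 608 counts. Co-treated kidneys ran from 0.716 through 1.39 to 1.82 CPM. All cisplatin kidneys were above all others, and co-treated kidneys overlapped vehicle. Cisplatin raised it by a log2 fold change of 3.64 ± 0.36 (adjusted p = 6.32e-09), and co-treated kidneys differed from cisplatin kidneys by -2.71 ± 0.31 (adjusted p = 1.80e-07). Against vehicle the co-treated difference was 0.93 ± 0.37 (adjusted p = 0.0348), and with the number series as a covariate it was 0.73 (adjusted p = 0.172). This call was also lost when any of 6 libraries was left out. The KW6002 effects differed by -2.91 ± 0.50 (adjusted p = 7.30e-05).

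Gsr (ENSMUSG00000031584, chr8:33652523-33698163) encodes glutathione reductase, which returns oxidized glutathione to its reduced form. It rose from 115 to 143 CPM with vehicle to 251 to 281 with cisplatin, and co-treated kidneys ran from 211 to 333. Both groups exposed to cisplatin were above vehicle, and they overlapped each other. In log2 units the difference was 1.00 ± 0.09 with cisplatin (adjusted p = 2.74e-09), 1.07 ± 0.09 with co-treatment against vehicle (adjusted p = 1.51e-09) and 0.07 ± 0.09 between co-treated and cisplatin kidneys (95% CI, -0.11 to 0.26, adjusted p = 0.503).

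Both thioredoxin system genes rose with cisplatin and were lower with co-treatment. Txnrd1 (ENSMUSG00000020250, chr10:82833951-82897712) encodes the cytosolic thioredoxin reductase, a selenoprotein. Vehicle kidneys held 186, 178, 193, 201 and 200.4 CPM, and cisplatin kidneys 897, 795, 767, 783 and 635. Co-treated kidneys ran from 403 through 484 to 639 CPM, above all vehicle kidneys, and their highest value just exceeded the lowest of cisplatin. The log2 fold change was 2.02 ± 0.12 with cisplatin (adjusted p = 5.06e-13), -0.62 ± 0.11 with co-treatment against cisplatin (adjusted p = 3.44e-05) and 1.40 ± 0.11 against vehicle (adjusted p = 4.00e-10). Its KW6002 effects differed by -0.65 ± 0.15 (adjusted p = 0.00145), and within the 500s by -0.53 (adjusted p = 0.0657).

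Srxn1 (ENSMUSG00000032802, chr2:152105516-152111376) encodes sulfiredoxin, which repairs overoxidized peroxiredoxins, and its fold change with cisplatin was, with that of Slc7a11, one of the 2 highest of the 10 genes, not separated beyond their errors. Vehicle kidneys held 73.5, 61.8, 68.5, 69.1 and 72.6 CPM, and cisplatin kidneys 1047, 863, 1092, 1051 and 684. Co-treated kidneys ran from 268 through 381 to 489 CPM. The vehicle, co-treated and cisplatin groups did not overlap. Its log2 fold change was 3.78 ± 0.16 with cisplatin, or 13.7-fold (adjusted p = 5.03e-15), and -1.33 ± 0.14 with co-treatment against cisplatin (adjusted p = 4.76e-08). Against vehicle the co-treated kidneys were still higher by 2.45 ± 0.15, or 5.47-fold (adjusted p = 7.90e-12), and the KW6002 effects differed by -1.30 ± 0.20 (adjusted p = 1.86e-05).

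Set beside all genes tested, the members changed widely but so did the transcriptome. With cisplatin, 9 members were higher, where 34.6% of all genes were, and 1 was lower, Keap1, where 35.9% were, although not when libraries were scaled by size alone. The median log2 fold change was 1.70 over the members and -0.01 over all genes. A stricter rule asked for an adjusted p below 0.01 together with a log2 fold change past 1 in size. By it 7 members were higher, against 12.1% of all genes, and 0 were lower, against 12.1%. Among the 7, Gsr sat at the cutoff, with a log2 fold change of 1.0003. It was at 0.9994 with no filter and at 0.94 within the 500s. For 7 members all cisplatin kidneys were above all vehicle kidneys, which was so for 27.4% of genes, and for 1 member, Keap1, all were below, as for 27.9% of genes. This separation of Keap1 was found on the TMM scale and not with scaling by library size alone.

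With co-treatment against cisplatin, 6 members were lower, where 27.2% of all genes were, and 1 was higher, Keap1, where 28.6% were. Gclm, Nqo1 and Gsr did not pass. The members' median was -0.51 and that of all genes 0.01. By the stricter rule 2 were lower, Srxn1 and Slc7a11 (5.66% of genes), and 0 were higher (4.65%). All co-treated kidneys were below all cisplatin kidneys for 5 members, as for 18.5% of genes, and above for 1, as for 19.3%. With co-treatment against vehicle, 8 members were higher (29.8% of genes) and 0 lower (29.9%), also 0 by DESeq2 and at an unadjusted p below 0.05, with a median of 1.00. By the stricter rule these were 5 and 0, against 5.83% and 7.59% of genes. The comparisons share the cisplatin and vehicle kidneys, so their values are not independent of each other.

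With KW6002 alone, 0 members passed in either direction, by edgeR and by DESeq2. Of all genes, 0.0175% were higher and 0.0% lower, and by the stricter rule 0.0% in each direction. At an unadjusted p below 0.05, which 11.3% of all genes reached, there were 2 members, Hmox1 at -0.58 and Gclc at 0.34, and all 10 ranges overlapped vehicle. A different KW6002 effect in the presence of cisplatin was called for 7 members, negative in 6 (19.9% of genes) and positive in 1 (22.8%). By the stricter rule it was negative in 2 (4.33% of genes) and positive in 0 (4.24%).

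**Figure D3:**
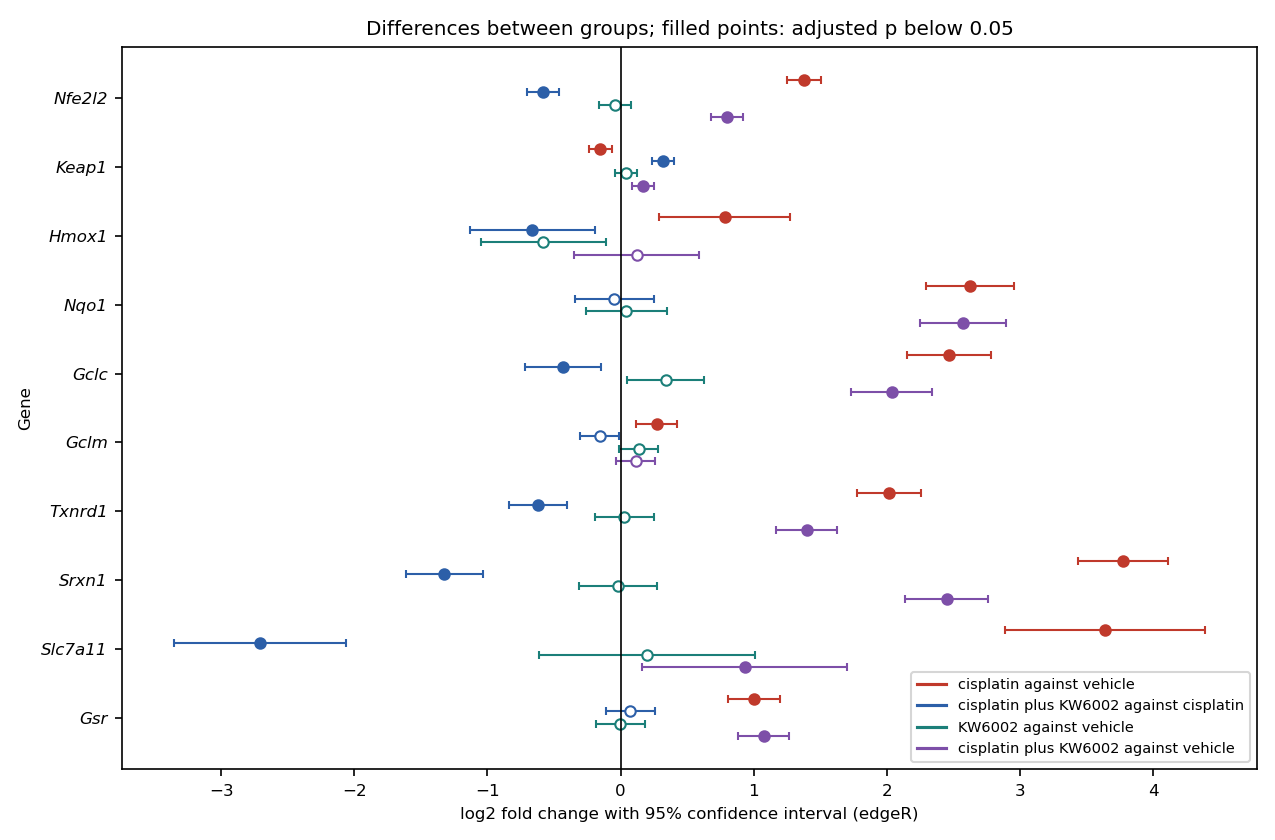
Log2 fold changes (horizontal axis) with 95% confidence intervals for each gene in 4 comparisons, distinguished by colour; filled points have an adjusted p below 0.05 and open points do not. The cisplatin values run from -0.15 for Keap1, which turns to 0.066 with scaling by library size alone, to 3.78 for Srxn1, the co-treated values against cisplatin run from -2.71 for Slc7a11 to 0.32 for Keap1, and every point for KW6002 alone is open.

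Levels of different genes can be compared only per length, and here they are CPM per kilobase of annotated exon. In vehicle kidneys Gclc had the highest mean, at 72.2 ± 2.96 (SD, n = 5). Gclm at 52.2 ± 4.85, Nqo1 at 49.6 ± 10.9 and Gsr at 48.6 ± 4.07 were not separated beyond their spread. Hmox1 at 51.0 ± 28.0 overlapped all of these within its SD, Gclc among them, and also Nfe2l2, Txnrd1 and Srxn1. Nfe2l2 at 30.4 ± 2.81, Txnrd1 at 27.0 ± 1.39 and Srxn1 at 24.5 ± 1.63 followed, with neighbours overlapping within about their SDs. Keap1 stood at 10.4 ± 0.284 and Slc7a11 at 0.0482 ± 0.0112. With cisplatin the leading genes were Gclc at 400.2 ± 42.2, Srxn1 at 336 ± 60.9 and Nqo1 at 305 ± 16.6, of which Srxn1 overlapped both of the others within their SDs. The middle of the order was Txnrd1 at 109 ± 13.2, Gsr at 97.2 ± 4.04, Hmox1 at 87.8 ± 8.82, Nfe2l2 at 79.1 ± 5.03 and Gclm at 63.0 ± 3.41. Keap1 at 9.33 ± 0.284 and Slc7a11 at 0.604 ± 0.343 remained last. With co-treatment Gclc at 296 ± 46.5 and Nqo1 at 295 ± 53.0 were not separated, ahead of Srxn1 at 134 ± 33.4.

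Mice of 1 group also differed in ways that several members shared. Over the 45 pairs of members the correlation of log2 CPM across all 22 kidneys ran from -0.62 to 0.99 with a median of 0.74. These points share their treatment groups, and with group means removed the values ran from -0.46 to 0.77 with a median of 0.28, positive in 35 pairs. Co-treated replicate 6 was lowest of its group for 4 members and among the lowest 2 for 8, and replicate 1 was lowest for another 4. These 2 kidneys, singled out after their values were seen, had the highest proximal tubule sums of their group, 11115 and 10093 CPM against 7495 to 8033 in the other 4. Their injured tubule sums were 352 CPM in replicate 6, the lowest of the group, and 574 in replicate 1, within the group range of 352 to 752. Cisplatin replicate 5 was lowest of its group for 6 members. It also had the highest proximal tubule sum of the cisplatin group, 4929 CPM, and the lowest injured tubule sum, 1288 CPM against 2155 to 2423. The part of these marker levels in the members' values was not tested.

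The gene with the pattern most like that of Nfe2l2 over the 22 kidneys was Perp, a membrane protein gene that p53 induces, with a Pearson correlation of log2 CPM of 0.992. Setd4, which encodes a methyltransferase, followed at 0.991 and Aaas, which encodes a nuclear pore protein, at 0.990. Mean Perp was 69.3 CPM with vehicle, 235 with cisplatin and 133 with co-treatment. Hmox1 had less close companions, namely Klf10 at 0.911, Zfp874a at 0.898 and Dusp4 at 0.892. The points share their group means, and the values are descriptions.

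Other genes of the pathway were described from 3 lists. Of 31 further NRF2 target genes tested, 25 were higher and 3 lower with cisplatin, with a median log2 fold change of 1.25, where 34.6% of all genes were higher and 35.9% lower. With co-treatment against cisplatin 16 were lower and 6 higher, with a median of -0.29, beside 27.2% and 28.6% of all genes. Against vehicle 22 were higher and 2 lower, beside 29.8% and 29.9%. The largest cisplatin changes were in Cbr3, a carbonyl reductase, from 1.48 ± 0.330 to 112 ± 10.3 CPM (log2 fold change 6.25), in Ephx1, which encodes microsomal epoxide hydrolase, from 54.0 ± 8.23 to 1043 ± 42.7 CPM (4.27), and in Abcc3, an efflux transporter, from 4.15 ± 1.143 to 72.0 ± 11.9 CPM (4.12). With co-treatment against cisplatin the largest were in the carboxylesterase Ces2g (-1.79), in Blvrb, which reduces biliverdin (-1.77), and in Abcc3 (-1.67).

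The regulators and partners of KEAP1 and NRF2 were mixed. Of 20 tested, 9 were higher and 7 lower with cisplatin, with a median of 0.02, beside 34.6% and 35.9% of all genes. With co-treatment against cisplatin 7 were higher and 5 lower, beside 28.6% and 27.2%, so these counts were near those of all genes. The small MAF gene Maff, whose product pairs with NRF2, rose from 3.87 ± 1.47 to 41.9 ± 4.64 CPM with cisplatin (log2 fold change 3.44) and was at 19.4 ± 3.94 with co-treatment (-1.11 against cisplatin). Mafk followed at 1.05 and -0.74. Bach2, a repressor that also pairs with small MAF proteins, was lower with cisplatin (-1.08), and the coactivator gene Crebbp was higher with co-treatment than with cisplatin (0.45).

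The glutathione and thioredoxin cycle outside the members was also mixed. Of its 24 genes, 13 were lower and 9 higher with cisplatin, with a median of -0.31, beside 35.9% and 34.6% of all genes. With co-treatment against cisplatin 14 were higher and 7 lower, with a median of 0.30, beside 28.6% and 27.2%. Ggt1, the brush border enzyme that begins glutathione breakdown, fell from 1359 ± 43.8 to 272 ± 65.1 CPM with cisplatin and was at 798 ± 54.5 with co-treatment, log2 fold changes of -2.32 and 1.55. Dpep1, a brush border dipeptidase (-1.88), and Chac2, which also degrades glutathione (-1.66), were the next lowest with cisplatin. Cbs, of the pathway from homocysteine to cysteine, was higher with co-treatment than with cisplatin (1.09), and Txnip, which binds thioredoxin, was lower (-1.35). Ggt1 and Dpep1 are proximal tubule genes, and the proximal tubule marker sums given above moved in the same direction, with 6 of 6 markers lower with cisplatin and 5 of 6 higher with co-treatment against cisplatin. That part was not tested. With KW6002 alone 0 genes of the 3 lists passed by edgeR. DESeq2 called 1 other target gene and 2 cycle genes, and at an unadjusted p below 0.05 edgeR gave 2 regulators of 20, 4 other target genes of 31 and 4 cycle genes of 24, beside 11.3% of all genes.

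**Figure D4:**
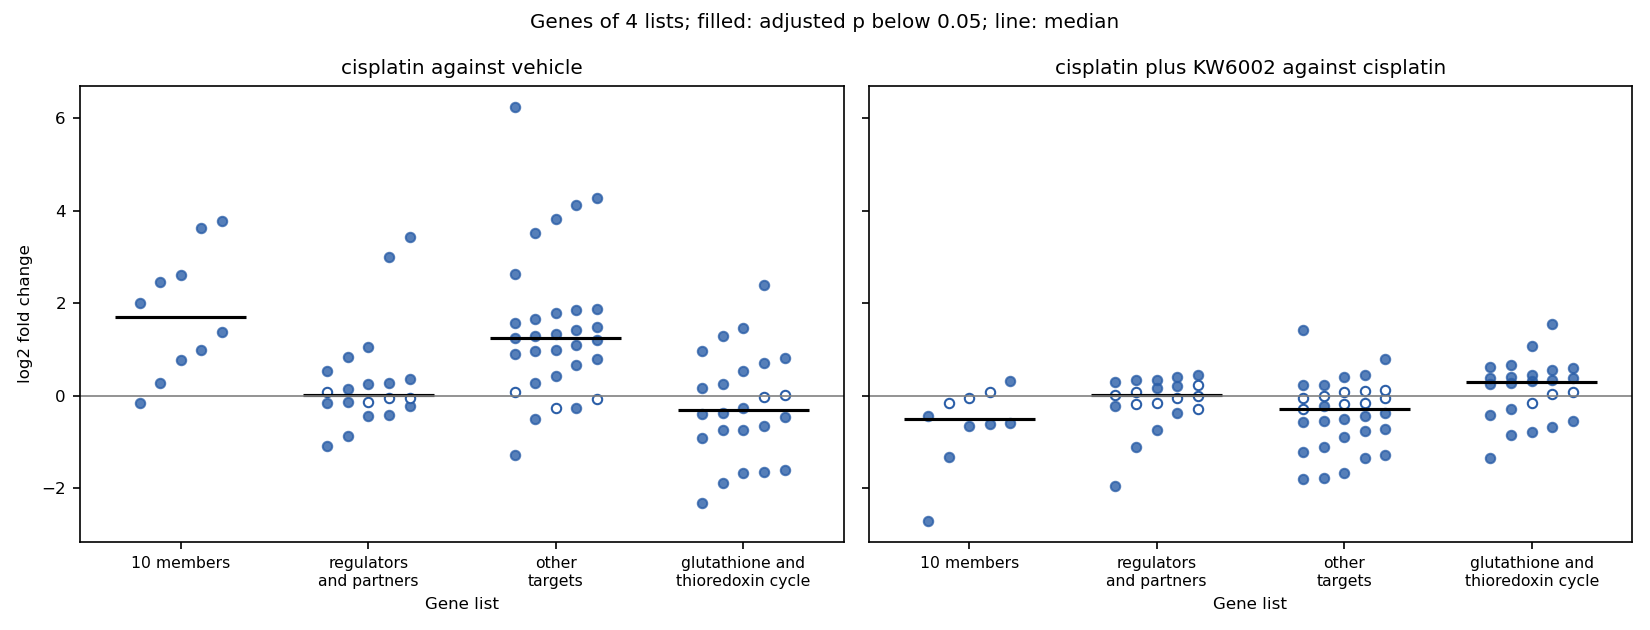
Log2 fold changes (vertical axis) of the 10 members and of 3 lists, with cisplatin against vehicle on the left and cisplatin plus KW6002 against cisplatin on the right; each point is a gene, filled where the adjusted p is below 0.05, and lines are medians. The medians of the members and of the other target genes are 1.70 and 1.25 on the left and -0.51 and -0.29 on the right, and those of the glutathione and thioredoxin cycle are -0.31 and 0.30.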

How the data were processed

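The authors aligned single-end reads of 50 bases from stranded poly(A) libraries to mm10 with STAR and counted the uniquely aligned ones per Ensembl gene with HTSeq 0.6.1p1. The deposited unit is the raw count, which the authors had not normalized. Use of strand in counting is not given in the sources used here. Genes annotated over the members reached at most 68 counts in a library, among those present in the count table. Some overlapping genes of Gclm and Slc7a11 were not in it. Another 66 columns have no name or value and were not used.

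Differences were tested with edgeR 4.0.16 under R 4.3.3. The filterByExpr step kept 17131 genes, which hold 99.9% of the counts. It asked for a CPM equal to 10 counts in a library of median size in at least 5 libraries, and 15 in total. TMM scaling, 1 mean per group over all 22 kidneys, quasi-likelihood tests and Benjamini-Hochberg adjustment gave 5 comparisons, the fifth being the difference between the KW6002 effects. CPM used TMM-scaled totals. Each p sets a group difference against the spread between mice, estimated with information shared across genes. With a single library per mouse, that spread includes differences between libraries. Whether samples with the same replicate number were paired was checked by their deviations from group means. Of 31 such pairs, 7 correlated above 0.1 (median 0.01). That did not settle whether they were paired, and the main fit used no block.

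The members, the 3 pathway lists (77 genes) and the marker lists (12 cell types or states) were chosen with earlier results of these data known. The text names, per pathway list and for each of the first 2 comparisons, the 3 genes that changed most among those with an adjusted p below 0.05 and an average log2 CPM of at least 2. The 3 genes most like Nfe2l2 and Hmox1 were taken by the same level rule. Symbols and positions came from GENCODE M21 and promoters from RefSeq (GRCm38.p6). The motif was searched on both strands. The steps were tested on simulated data with 200 genes changed in the cisplatin group. So few changes cannot show how TMM scaling behaves where as many genes differ as here.

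Alternatives were DESeq2 1.42.0, relative log expression factors, library size alone, a filter of 10 counts in every library, no filter, a block for the replicate number, fits of the compared groups alone, a covariate for the label series, the mice numbered in the 500s alone, the stricter call rule, and each library left out. Applying them to the pathway lists was a choice made after seeing the data. The protein of Nfe2l2 was not analysed here.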

Additional observations from a re-analysis of the deposited data

Results flagged for a closer look

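Nfe2l2 stood at 134 CPM in vehicle replicate 5, far from the other 4 vehicle kidneys at 109.8 to 112.6. Hmox1 stood at 89.5 CPM in KW6002 replicate 5, far from the other 5 at 44.8 to 60.5. These were 2 of 40 groups of values examined, and chance alone sets apart about 1 group in 20. Vehicle replicate 5 also had the highest Hmox1 of all 22 kidneys, at 170.9 CPM.

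The effect of KW6002 differed between mice with and without cisplatin for 7 members, by the interaction term of the edgeR fit. It was negative in 6, beside 19.9% of all genes, and positive in 1, beside 22.8%. On the log2 scale the difference was -0.54 for Nfe2l2, 0.28 for Keap1, -0.77 for Gclc, -0.29 for Gclm, -0.65 for Txnrd1, -1.30 for Srxn1 and -2.91 for Slc7a11. Within the mice numbered in the 500s the difference was -0.27 for Gclm (adjusted p = 0.0808) and -0.53 for Txnrd1 (adjusted p = 0.0657), no longer past the threshold, on 2 vehicle kidneys.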

How the results depend on the processing

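Of 1540 values of single members under the alternatives, 1484 kept their direction and their side of the threshold. The stricter rule gave 0 members lower with cisplatin, 0 higher and 2 lower with co-treatment against cisplatin, 5 higher with co-treatment against vehicle, and 0 higher and 2 lower for the difference of the KW6002 effects. Scaling by library size alone left 0 members lower with cisplatin, with Keap1 at a log2 fold change of 0.066, and gave 4 regulators (7 before) and 1 other target gene (3 before) lower with cisplatin and 7 cycle genes (12 before) lower with co-treatment against vehicle. DESeq2 called 1 other target gene and 2 cycle genes lower with KW6002 alone. Regulators higher with co-treatment against vehicle numbered 11, but 6 with the label series as a covariate and 4 within the 500s, where 4 other target genes (7 before) had a positive difference of the KW6002 effects.

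With each library left out in turn, members higher and lower with cisplatin stayed at 9 and 1, and those with co-treatment against cisplatin at 1 and 6 to 7. Against vehicle 7 to 8 were higher and 0 lower, with KW6002 alone 0 and 0, and for the difference of effects 1 and 6. Slc7a11 with co-treatment against vehicle lost its call without vehicle replicate 2, 3 or 5 or co-treated replicate 1, 3 or 5 (0.81 to 0.94), and Gclm with co-treatment against cisplatin gained one without cisplatin replicate 5 or co-treated replicate 4 or 5 (-0.19 to -0.18). Without vehicle replicate 5, Hmox1 with co-treatment against vehicle was called at 0.50. Depth limited Slc7a11 most, with 13 to 53 counts per library outside the cisplatin group.

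Whether replicate numbers paired the mice was not settled. Of 22 libraries, 8 correlated best with their own number, and same-number correlations ran from -0.18 to 0.40 with a median of 0.01. Replicates 1 to 3 of vehicle and of KW6002 are also the kidneys numbered in the 300s, so the check cannot separate number from series. With the replicate number as a block, members higher and lower with cisplatin were 9 and 1, and with co-treatment against cisplatin 1 and 6.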
